A study of Arvicanthis niloticus with 28 samples.

Results

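The expression of 39 antioxidant and redox defense genes was examined in the retinal vasculature of 28 Nile rats, a diurnal rodent that develops diabetes on an energy-rich diet. The 39 genes were chosen by name and function, with earlier results of these data known. All of them were among the 18970 genes in the expression tables. They were divided by role into 9 genes of the NRF2 pathway and its targets, 6 superoxide enzymes, 13 peroxide enzymes, 7 glutathione enzymes and 4 metallothionein and ferritin genes. Each library came from the retinal vessels of 1 wild-type, untreated Nile rat, isolated by osmotic lysis of the surrounding neural tissue. Acellular capillaries, the empty basement membrane tubes left when capillary cells die, were counted per mm2 of retina, and random blood glucose (RBG) was measured in every rat. The diet and age of each rat were not given in the labels used here, so that RBG and density are the only measures of disease in these comparisons.

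The density groups were 4 pre-dropout rats and 24 rats in the normal range below 16 per mm2. The pre-dropout rats T353M, T389M, T391M and T407M were all male, had densities of 17.1, 17.9, 17.6 and 17.8 per mm2 and had RBG of 57.4, 443, 278 and 117 mg/dL. The normal group held 8 males and 16 females with densities of 5.90 to 14.5 per mm2 and RBG of 52.0 to 422 mg/dL (median 67.4). By glucose, 5 rats had RBG over 200 mg/dL, namely T370M (226 mg/dL), T389M (443), T391M (278), T392F (362) and T446M (422), and the other 23 had 52.0 to 147 mg/dL (median 66.0). T389M and T391M belong to both the pre-dropout and the high-RBG group, so these comparisons share samples.

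NRF2, encoded by Nfe2l2, is the transcription factor that switches on antioxidant genes when oxidants modify its inhibitor KEAP1, which otherwise sends it for degradation. Superoxide, made by NADPH oxidases and by the mitochondrial respiratory chain, is converted to hydrogen peroxide by superoxide dismutases, and the peroxide is then removed by catalase, glutathione peroxidases and peroxiredoxins, with electrons from glutathione or thioredoxin. Metallothioneins bind zinc and copper, and ferritin stores iron in a form that cannot feed the production of hydroxyl radicals. Oxidative stress in retinal endothelial cells and pericytes is among the long-studied features of diabetic retinopathy, and much of NRF2 control acts on the protein, which RNA levels do not show.

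The libraries held 153111 to 10029207 counts (median 3781775), and 2 of them, T410F and T448M, held fewer than 1000000. The number of genes with a count ran from 7502 to 16139 and did not simply follow depth. In 4 libraries of over 5000000 counts (T420F, T424M, T425M and T430F, all normal) only 9426 to 10326 genes had a count, against 12661 to 16139 in the 6 other libraries of that depth. In 8 libraries over 13000 genes had a count, 1 from the pre-dropout rats, 7 from normal rats and 2 from the high-RBG rats. Of the listed markers of the labelled tissue, 12 of 12 for endothelial cells (summed level 4567 to 15940 CPM, counts per 1000000 after TMM scaling) and 12 of 12 for pericytes and smooth muscle (2055 to 12380 CPM) had counts, and so did markers of Muller glia and astrocytes (4406 to 12640 CPM), photoreceptors (427 to 7167 CPM) and erythrocytes (27 to 4412 CPM). Markers of inner retinal neurons (127 to 1972 CPM) and of retinal pigment epithelium (117 to 1745 CPM) had counts too. Those of microglia and macrophages (0.81 to 101 CPM) and of neutrophils (0 to 37.8 CPM) were lower. No 2 libraries held the same counts. In these bulk libraries, fewer cells of a type and less RNA per cell cannot be told apart.

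Ferritin heavy chain, extracellular superoxide dismutase and the endoplasmic reticulum peroxiredoxin Prdx4 headed the list of members by median level per transcript length, in TPM (transcripts per 1000000). By median CPM, which is not divided by length, Prdx4 (45.4) and Sod3 (40.9) stood below Txn1 (384), Sod1 (244), Sod2 (200) and Prdx1 (142). In a library of median depth 1 count was worth 2.93 TPM for Sod3 and 2.18 TPM for Prdx4, against 0.26 TPM for Fth1. The TPM ranks of Sod3 and Prdx4 thus rest on the lengths used, and on fewer counts (median 148 and 147) than the rank of Fth1 (1710.5). All 39 members together took 0.223% to 0.587% of the TPM of a library (median 0.429%). Of the 39, 18 had a count in every library, 37 passed the count filter for testing, and the number at 0 in a single library ran from 0 to 13 (median 6.5). A count of 0 allowed a level of up to 0.299 counts per 1000000 in the deepest library and 19.6 in the shallowest. These limits are before TMM scaling and for counting error only. In the normal rats the median coefficient of variation of the tested members was 0.687, against 0.902 over all tested genes.

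**Figure D1:**
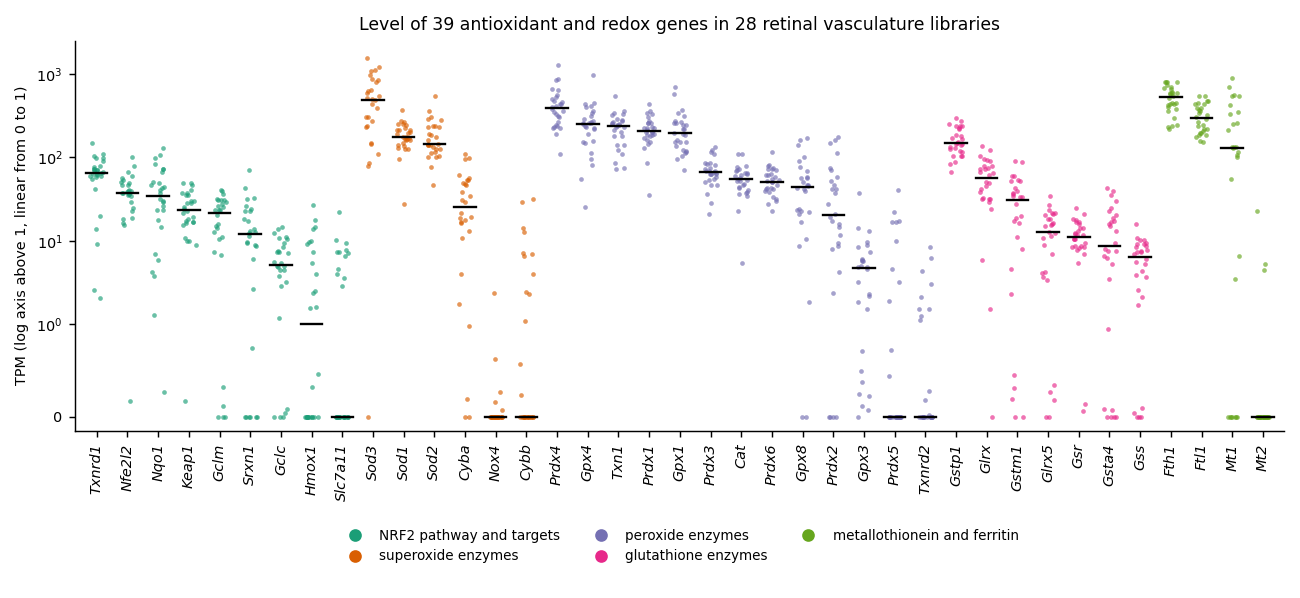
Level of each of the 39 members in TPM (vertical axis, logarithmic above 1 and linear from 0 to 1), with 1 point per library, a black bar at the median of the 28 libraries and colors for the 5 roles. Fth1, Sod3 and Prdx4 have the highest medians, 525.7, 490 and 390 TPM, and Nox4, Mt2, Slc7a11, Cybb, Prdx5 and Txnrd2 have a median of 0.

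Within the NRF2 group, the regulators were detected in every library. Nfe2l2 was at 0.17 TPM in T425M, had a median of 37.8 TPM and reached 99.5 TPM in T410F, and Keap1, its inhibitor, ran from 0.17 TPM in T430F to 49.4 TPM (median 23.2). The lowest Nfe2l2 value stood for 2 counts in T425M and the lowest Keap1 value for 4 counts in T430F, both among the 4 deep libraries with few genes. Among the targets, thioredoxin reductase Txnrd1 had the highest median (65.7 TPM, range 2.06 to 148), followed by the quinone reductase Nqo1 (34.9 TPM, range 0.27 to 128). The modifier subunit of glutamate-cysteine ligase, Gclm (median 21.7 TPM), stood above the catalytic subunit Gclc (5.14 TPM), and both were at 0 in 3 libraries. Sulfiredoxin Srxn1, which repairs overoxidized peroxiredoxins, had a median of 11.9 TPM and was at 0 in 6 libraries. Heme oxygenase Hmox1 was scarce, at 0 in 12 libraries with a median of 1.01 TPM and a highest value of 27.1 TPM in T430F. The cystine importer Slc7a11 was at 0 in 16 libraries and reached 21.9 TPM in T370M.

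Among the superoxide enzymes, the dismutases were abundant and the oxidase subunits were not. Sod3, the secreted dismutase that binds the vessel wall matrix, was at 0 in T448M and had a median of 490 TPM and a highest value of 1558 TPM in T430F. Cytosolic Sod1 (median 176 TPM, range 27.6 to 364) and mitochondrial Sod2 (median 143 TPM, range 46.9 to 546) were found in every library. Sod3 had few counts for its level, since 1 count in a library of median depth was worth 2.93 TPM, against 0.20 TPM for Sod1. The membrane subunit Cyba, which several NADPH oxidases share, had a median of 25.4 TPM. Nox4, the oxidase usually assigned to vascular cells, was at 0 in 23 libraries and never exceeded 2.34 TPM, and Cybb, the phagocyte oxidase NOX2, was at 0 in 15 libraries with a highest value of 31.2 TPM in T353M.

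Of the 10 members with the highest median TPM, 5 were peroxide enzymes. Prdx4 had a median of 390 TPM (range 111 to 1283), Gpx4, which reduces lipid peroxides in membranes, 254 TPM (25.3 to 970), thioredoxin Txn1 240 TPM (73.0 to 541), cytosolic Prdx1 208 TPM (35.4 to 439) and Gpx1 193 TPM (69.8 to 688). Mitochondrial Prdx3 (median 66.0 TPM), catalase Cat (54.7 TPM), Prdx6 (51.3 TPM) and Gpx8 of the endoplasmic reticulum (44.4 TPM) formed a middle tier. Prdx2, the peroxiredoxin that is highly abundant in red cells, had a median of 20.1 TPM and was at 0 in 4 libraries. The secreted Gpx3 was at 4.75 TPM, and Prdx5 and mitochondrial Txnrd2 were at 0 in 17 and 16 libraries. The ranges over rats of the first 5 genes overlapped.

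Among the glutathione enzymes, the transferase Gstp1 had the highest median (147 TPM, range 66.5 to 295), followed by the glutaredoxin Glrx (56.5 TPM, at 0 in T430F) and Gstm1 (30.5 TPM, at 0 in 2 libraries). Mitochondrial Glrx5, which serves iron-sulfur cluster assembly, had 12.6 TPM, glutathione reductase Gsr 11.03 TPM, the transferase Gsta4, which clears the lipid aldehyde 4-hydroxynonenal, 8.65 TPM, and glutathione synthetase Gss 6.47 TPM. The transferases belong to gene families with close copies, and how the counting split reads between such copies was not stated, so that Gstm1 and Gstp1 levels are uncertain to that extent. Of these 7 genes, only Gstp1 and Gsr had a count in every library.

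The ferritin subunits had counts in every library and the metallothioneins did not. Ferritin heavy chain Fth1 ran from 219 TPM in T404F to 805 TPM in T408F (median 525.7) and light chain Ftl1 from 151 TPM in T401F to 550 TPM in T420F (median 298). Mt1 was at 0 in 7 libraries, had a median of 130 TPM and reached 896 TPM in T420F, with 351 counts there. Its median was 28.5 counts, and 1 count in a library of median depth was worth 4.51 TPM. Mt2 was at 0 in 25 libraries and had at most 2 counts, in T391M, so that nothing could be said about it by group. Mt1 and Mt2 are short, related genes, and how the counting separated their reads was not stated. Ferritin genes have many processed copies in rodent genomes, so that their levels are uncertain to the extent that reads were split between copies.

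**Figure D2:**
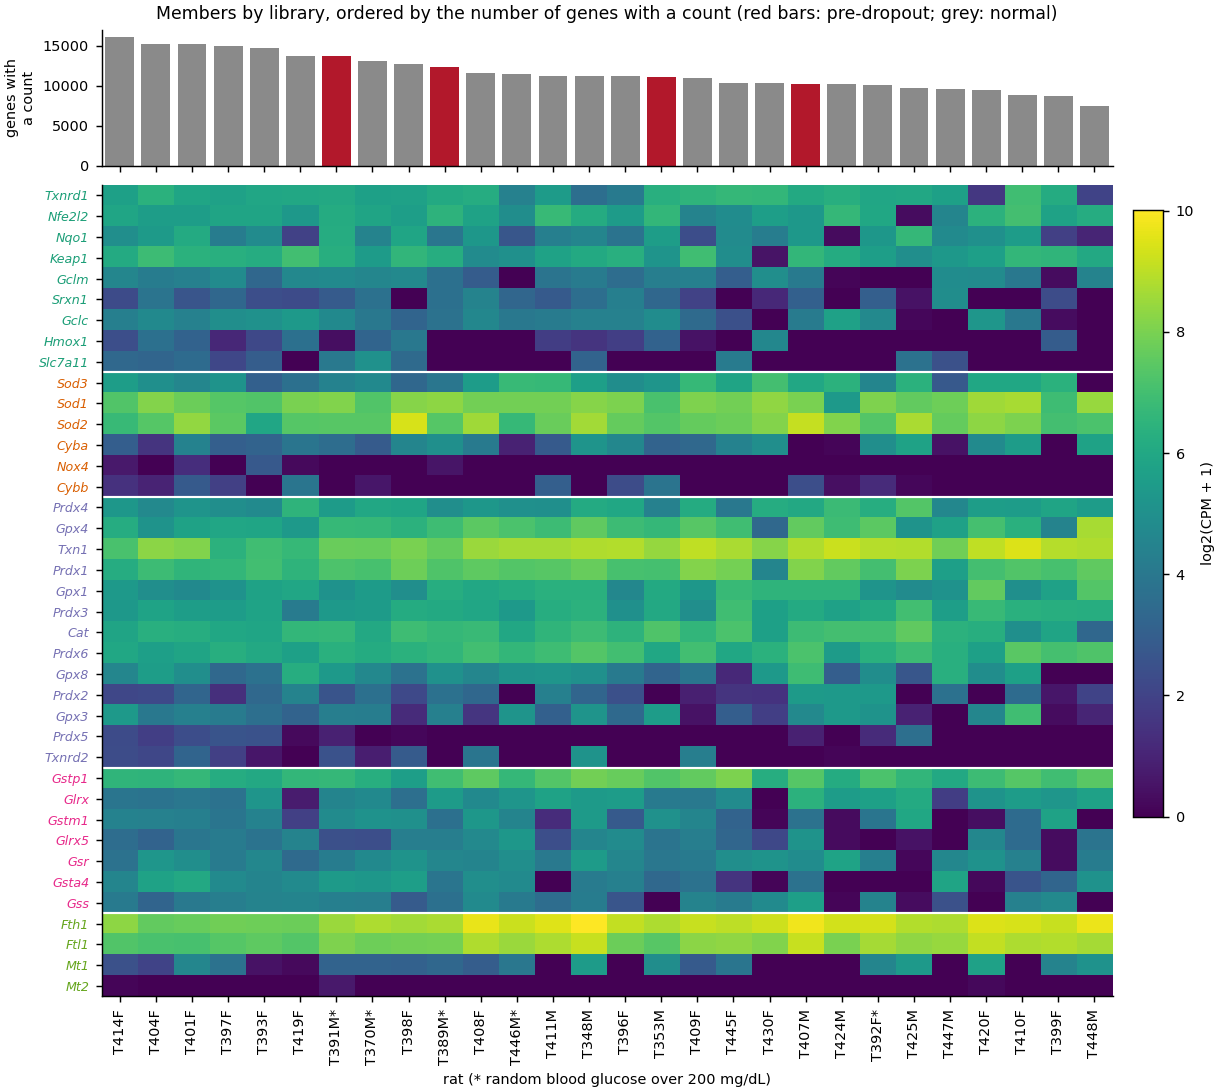
Level of each member (rows, colored by role) as log2(CPM + 1) in each of the 28 libraries (columns), ordered by the number of genes with a count, which the bars at the top give (red for pre-dropout, grey for normal; asterisks mark RBG over 200 mg/dL). The 4 pre-dropout libraries do not stand together, and dark cells, members at or near 0, gather in the libraries with few genes on the right.

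Single libraries lacked members that most others held, and depth alone did not set this. In T425M, 11 of the 37 tested members (29.7%) were under 10% of their median level, in T424M and T448M 10 each (27.0%), and the shares over all tested genes in those libraries were 39.2%, 36.6% and 37.4%. T425M, for example, had 2 counts of Nfe2l2 and 1 of Gsr beside 314 of Mt1. The shares of all genes were thus larger than those of the members. T424M was the deepest library and T448M the second shallowest.

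The first question was whether members differ between pre-dropout and normal retinal vasculature, the RNA-seq comparison of the study. Across the roles, none of the 37 tested members was called by edgeR's quasi-likelihood test (over 2-fold, with an adjusted p under 0.05), none had an unadjusted p under 0.05, and 0.00% of the 13800 genes tested were called. DESeq2, limma-voom and limma on log2(TPM + 1) called no member either, and 394 genes overall had an unadjusted p under 0.05. The log2 fold change was above 0 in 25 of 37 members (median 0.12, against -0.13 over all genes). In males only it was above 0 in 19 of 33 members, and with RBG and sex as covariates in 18 of 37 (median near 0). Without T407M, a pre-dropout rat, it was above 0 in 18 of 37.

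Gpx8 had the smallest p among the members. Its level was 8.33, 32.4, 40.9 and 120 CPM in the pre-dropout rats T353M, T389M, T391M and T407M, against 0 to 78.1 CPM (median 23.9) in the normal rats. T407M lay above every normal rat and the other 3 lay within their range. The means were 50.4 ± 48.4 and 26.3 ± 21.2 CPM (SD, n = 4 and 24). The log2 fold change was 0.94 (SE 0.80, unadjusted p = 0.246 and adjusted p = 1.0 by edgeR), with a range of 0.12 to 1.35 over the alternatives.

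Catalase was at 153, 101, 100 and 116 CPM in the same 4 rats and at 9.21 to 188 CPM (median 82.8) in the normal rats. All 4 pre-dropout values lay above the normal median and inside the normal range, and the log2 fold change was 0.44 (SE 0.39, unadjusted p = 0.264 by edgeR). Prdx4 was at 19.99, 29.6, 43.5 and 64.1 CPM, against 15.01 to 160 CPM (median 46.0) in the normal rats. The groups overlapped throughout, with a log2 fold change of -0.49 (SE 0.51, unadjusted p = 0.348 by edgeR). Cybb was at 13.3, 0, 0 and 4.33 CPM, and 11 of 24 normal rats had a count, with a highest value of 13.8 CPM. Its log2 fold change of 1.41 (SE 1.601) rested on T353M and became -0.17 without that rat. Summed microglia and macrophage markers, another cell type that expresses Cybb, were at 6 to 50 CPM in the pre-dropout rats and 1 to 101 CPM in the normal rats, and their part in this value was not tested.

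By role, 7 of 9 NRF2 genes had a log2 fold change above 0 (median 0.27, from -1.06 to 0.65), which included Nqo1 (0.65, SE 0.78), Nfe2l2 (0.43, SE 0.54) and Keap1 (0.11, SE 0.53). The 9 genes summed to 281 to 362 CPM in the pre-dropout rats (median 302) and to 110 to 422 CPM in the normal rats (median 252), so that the 4 rats lay inside the normal range. Of the glutathione genes 5 of 7 were above 0 (median 0.19) and of the peroxide genes 8 of 13 (median 0.089), the latter 5 of 13 with sex as a covariate. Of the superoxide genes 3 of 5 were above 0, with a median of 0.038. The ferritin subunits had log2 fold changes near 0, at 0.0043 for Fth1 and 0.011 for Ftl1, and the SE of 0.35 for each leaves room for a change in either direction. Among marker lists, endothelial markers were above 0 in 11 of 12 genes (median 0.19), pericyte and smooth muscle markers in 1 of 12 (median -0.45), and erythrocyte markers in 5 of 5 tested (median 0.75). Photoreceptor markers were above 0 in 2 of 19 (median -0.88) and inner retinal neuron markers in 3 of 16 (median -0.71). The photoreceptor markers summed to 630 to 1321 CPM (median 889) in the pre-dropout rats. In the normal rats they summed to 427 to 7167 CPM (median 1184), the highest in T370M. Retinal pigment epithelium markers were above 0 in 5 of 6 tested (median 0.93), with Ttr at 3.44 (SE 1.35, unadjusted p = 0.0146 by edgeR). They summed to 296 to 1745 CPM (median 1075) in the pre-dropout rats and to 117 to 1566 CPM (median 504.5) in the normal rats. No marker was called, and their part in the members' values was not tested.

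**Figure D3:**
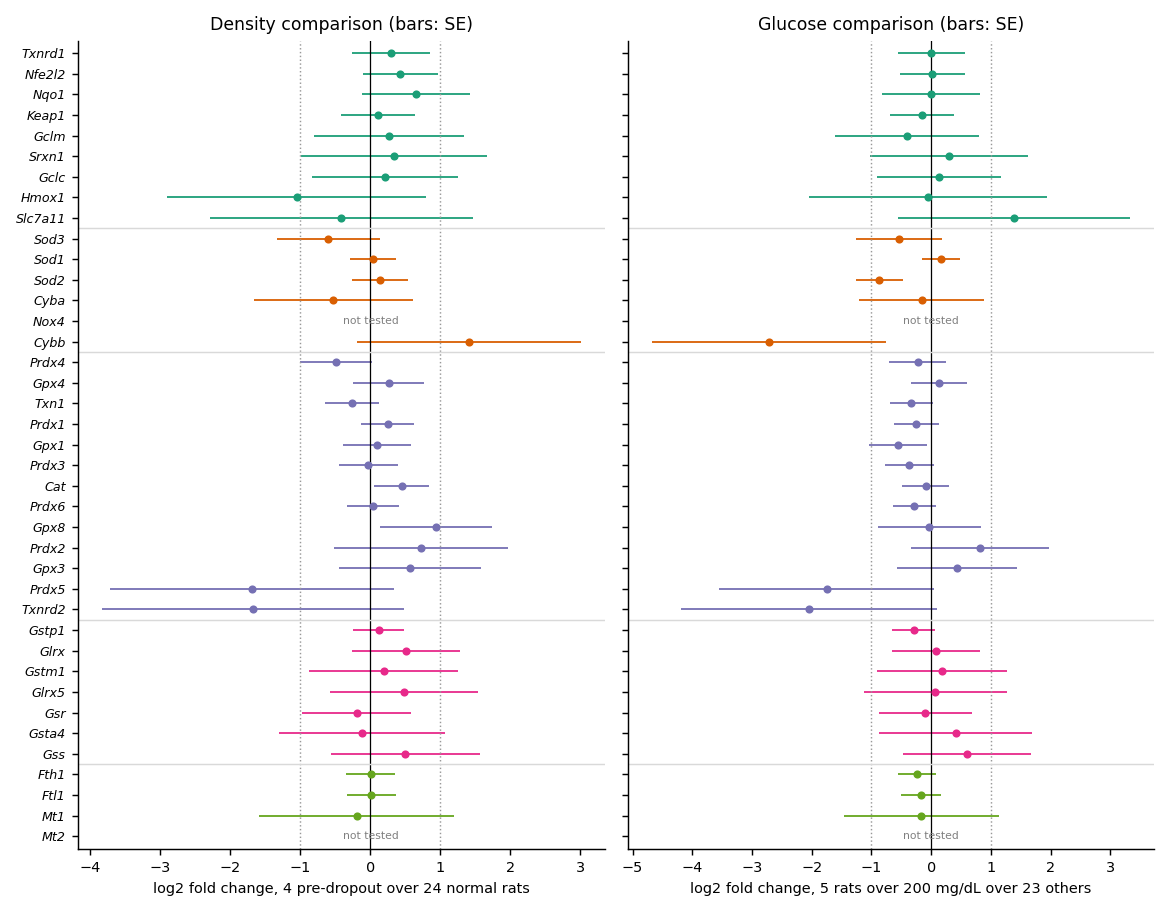
Log2 fold change of each tested member (horizontal axis; points, bars of 1 SE, colored by role) for pre-dropout over normal rats (left) and for rats with RBG over 200 mg/dL over the others (right), with dotted lines at 2-fold. The SE were derived from the F test. No member passed the threshold in either comparison, and the widest bars belong to genes at 0 in many libraries, such as Cybb, Prdx5 and Slc7a11.

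The second question was whether members follow blood glucose. With sex as a covariate, none of the 37 tested members was called between the 5 rats with RBG over 200 mg/dL and the other 23 by edgeR, 0.00% of the 13406 genes tested were called, and Sod2 alone among the members had an unadjusted p under 0.05 (744 genes overall). DESeq2, limma-voom and limma on TPM called no member. The log2 fold change was above 0 in 14 of 37 members (median -0.098, against 0.089 over all genes), but on the log2(TPM + 1) scale in 21 of 37.

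Sod2, which removes superoxide inside mitochondria, was at 169, 166, 169, 161 and 103 CPM in T370M, T389M, T391M, T392F and T446M. In the other 23 rats it was at 59.6 to 678 CPM (median 208). The 5 high-RBG rats thus lay below the median of the others and within their range, with means of 154 ± 28.7 and 263 ± 148 CPM (SD, n = 5 and 23). The log2 fold change was -0.87 (SE 0.39, unadjusted p = 0.0318 and adjusted p = 0.713 by edgeR), and it stayed below 0 in all 20 alternatives, from -1.05 to -0.27, with adjusted p-values of 0.373 to 1.0. Per 100 mg/dL of RBG over all 28 rats the slope was -0.27 (SE 0.14, unadjusted p = 0.0507 by edgeR).

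Gpx1 was at 44.0, 74.6, 33.7, 35.7 and 70.2 CPM in the high-RBG rats and at 23.8 to 191 CPM (median 53.9) in the others, so that the groups overlapped (log2 fold change -0.55, SE 0.49, unadjusted p = 0.265 by edgeR). Cybb was at 0.53, 0, 0, 1.32 and 0 CPM against 0 to 13.8 CPM, and Prdx5 at 0, 0, 0.89, 1.32 and 0 CPM against 0 to 11.7 CPM. Both had a median of 0 in each group, and their log2 fold changes of -2.72 (SE 1.97) and -1.75 (SE 1.80) depend on few counts. Of the microglia and macrophage markers, 3 of 5 tested were below 0 in the same comparison (median -2.61; C1qa -4.65), and their part in the Cybb value was not tested. Prdx5 changed sign on the TPM scale, to 0.017.

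By role, 1 of 5 superoxide genes had a value above 0 (median -0.54; 3 of 5 on the TPM scale), 3 of 13 peroxide genes (median -0.25; 8 of 12 with the RBG limit at 110 mg/dL), 5 of 9 NRF2 genes, 5 of 7 glutathione genes and 0 of 3 metallothionein and ferritin genes. The superoxide genes summed to 359 to 526.3 CPM in the high-RBG rats (median 476) and to 236 to 1004 CPM in the others (median 547). Glutathione genes were close within the high-RBG rats, at 223 to 270 CPM, against 139 to 420 CPM in the others, with medians of 245 and 243 CPM. Beside these values, photoreceptor markers were above 0 in 18 of 19 genes (median 2.02), inner retinal neuron markers in 16 of 16 (median 1.10) and pericyte and smooth muscle markers in 1 of 11 (median -0.58), without a call. Photoreceptor markers summed to 633 to 7167 CPM in the high-RBG rats, the highest in T370M, and to 427 to 3204 CPM in the others. Their medians were 1080 and 1127 CPM, so that the median did not rise with high RBG. The part of all these markers in the members' values was not tested.

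In the slope on RBG itself, 0.00% of 13800 genes and none of 37 members were called by edgeR, with 525 genes and no member at an unadjusted p under 0.05. DESeq2 called no member. After Sod2, the smallest p-values belonged to Txnrd2 (-1.40 per 100 mg/dL, SE 0.83), Prdx5 (-0.80, SE 0.61) and Cybb (-0.92, SE 0.76). All 3 are at 0 in 15 or more libraries. Txnrd2 was at 0.80, 0, 4.77, 0 and 0 CPM in the high-RBG rats and reached 34.2 CPM among the others, whose median was 0. Fth1 had a slope of -0.032 (SE 0.11). On the log2(TPM + 1) scale the slope was above 0 in 19 members. In the edgeR fit it was above 0 in 12 of 37 members (32.4%, median -0.032), against 52.4% of all genes tested. In the same fit, pericyte and smooth muscle markers were above 0 in 0 of 12 genes (median -0.17), photoreceptor markers in 18 of 19 (median 0.27), inner retinal neuron markers in 14 of 16 (median 0.24) and microglia and macrophage markers in 3 of 8 (median -1.13). None was called, and their part in the members' slopes was not tested. T370M, the library with the highest photoreceptor sum (7167 CPM), was among those in this fit.

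**Figure D4:**
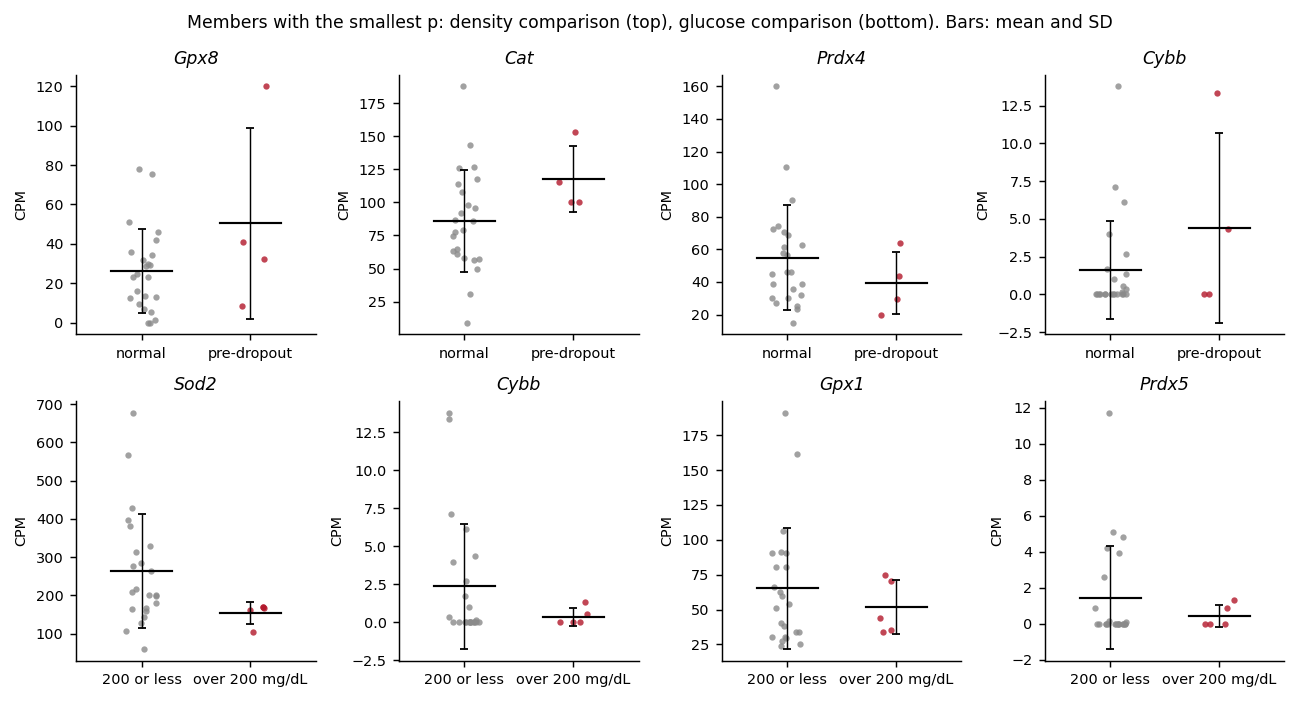
Level in CPM (vertical axes) of the 4 members with the smallest p in the density comparison (top row, pre-dropout and normal rats) and in the glucose comparison (bottom row, RBG over 200 mg/dL and the others), with 1 point per rat and bars for the mean and SD. The groups overlap in every panel, and the 5 high-RBG rats lie at 103 to 169 CPM for Sod2, below the median of 208 CPM of the others.

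Within the normal range, the density slope asked whether members follow the acellular capillary count before the pre-dropout range is reached. In the 24 normal rats, with sex as a covariate, 0.00% of 13677 genes and none of 37 members were called by edgeR, and 1 member, Gstp1, was among the 153 genes at an unadjusted p under 0.05. DESeq2 called no member. Gstp1, which conjugates glutathione to electrophiles, ran from 47.8 to 262 CPM (median 101) and had a slope of -0.695 per 5 acellular capillaries per mm2 (SE 0.31, unadjusted p = 0.0295 and adjusted p = 1.0 by edgeR), below 0 in all 12 alternatives. The next members were Gpx1 (-0.69, SE 0.41), Gpx4 (-0.50, SE 0.39) and Sod2 (0.36, SE 0.29). Of the 37 members 15 (40.5%) had a slope above 0, against 56.3% of all genes tested, and 23 members did so on the log2(TPM + 1) scale. Endothelial markers were above 0 in 1 of 12 genes in this fit (median -0.30) and photoreceptor markers in 18 of 19 (median 1.27), and their part was not tested. The photoreceptor markers summed to 427 to 7167 CPM (median 1184) in the normal rats, the highest in T370M, with a density of 12.6 per mm2.

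Since all pre-dropout rats were male, the sexes were compared within the normal group. Here 0.0247% of 12162 genes were called by edgeR, 3 genes with the Y-linked Eif2s3y among them (log2 fold change 8.96), and none of 35 tested members, with 533 genes and no member at an unadjusted p under 0.05. Limma-voom with sample weights called 5.96% of genes and 3 members, Fth1 (log2 fold change 1.34, adjusted p = 0.00803), Ftl1 (1.2, adjusted p = 0.00803) and Gpx4 (1.10, adjusted p = 0.027), all with higher values in males, where the median of all genes by limma-voom was -0.46. DESeq2 and limma on TPM called no member.

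Fth1 was at 438 to 1029 CPM (median 617) in the 8 normal males and at 191 to 820 CPM (median 525) in the 16 normal females. The ranges overlapped, with means of 648 ± 212 and 465 ± 211 CPM (SD, n = 8 and 16) and a log2 fold change of 0.53 (SE 0.28, unadjusted p = 0.0674 and adjusted p = 0.995 by edgeR). Of the 8 libraries in which over 13000 genes had a count, 1 was from a normal male and 6 from normal females, and without these 8 libraries the log2 fold change of Fth1 was 0.16. Gpx4 was at 34.5 to 411.3 CPM (median 116) in males and 9.42 to 179 CPM (median 76.7) in females, with a log2 fold change of 0.73 (SE 0.41), and Ftl1 was at 220 to 574 CPM (median 357) against 135 to 548 CPM (median 253), with 0.40 (SE 0.27). Prdx4 (0.57, SE 0.40) turned to -0.11 without the 4 deep libraries with few genes.

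All 12 tested peroxide genes had a log2 fold change above 0 in males over females (median 0.30), 7 of 12 on the log2(TPM + 0.1) scale, and 9 of 11 without the 8 libraries with over 13000 genes. The 3 metallothionein and ferritin genes were above 0 (median 0.53) and 3 of 9 NRF2 genes (median -0.24), while the median of all tested genes was -0.04. Of all 35 members 25 were above 0, and 13 on the log2(TPM + 1) scale. Endothelial markers were above 0 in 12 of 12 genes (median 0.36) and pericyte and smooth muscle markers in 10 of 10 (median 0.39), and their part in the members' values was not tested.

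Of 110 further genes of these pathways, none was called in any of the 5 comparisons by edgeR. They cover other NRF2 targets, oxidase subunits, thioredoxin and peroxidase genes, glutathione transferases, NADPH supply and iron handling. Between pre-dropout and normal rats 45 of 96 tested were above 0 and 0 had an unadjusted p under 0.05, the smallest for Aldh1l1, which yields NADPH from folate and is also a glial marker (-1.85, SE 0.94). In the glucose comparison 46 of 94 were above 0 and 3 had an unadjusted p under 0.05, led by Chac2, which degrades glutathione (4.86, SE 2.03, adjusted p = 0.572 by edgeR). On the RBG slope 51 of 96 were above 0 and 3 had an unadjusted p under 0.05, led by Gstp2, a close copy of Gstp1 (1.54 per 100 mg/dL, SE 0.55, adjusted p = 0.992 by edgeR). On the density slope 41 of 94 were above 0. In the sex comparison 49 of 87 were above 0 and 1 had an unadjusted p under 0.05, the sestrin gene Sesn3 (-2.89, SE 1.41).

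Members that act together were then compared over the 28 rats, as log2(CPM + 1). The ferritin subunits Fth1 and Ftl1, which co-assemble into 1 shell, varied together (Pearson's r = 0.887, Spearman's rho = 0.891, p = 1e-05 for each, the smallest that 100000 permutations can give, adjusted p = 0.000366). Without the 2 rats farthest from the median of Fth1, r was 0.854. Ftl1 ranked 2 among 13799 genes by its correlation with Fth1, while 29.5% of genes were called in either direction. In the 20 libraries with at most 13000 genes, r was 0.765 (permutation p = 9e-05, adjusted p = 0.00396), and in the 8 with more genes 0.777 (exact permutation p = 0.0421, adjusted p = 0.232).

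The other pairs did not pass. Prdx1 and its reductant Txn1 had r = 0.452 (rho = 0.539, permutation p = 0.0158, adjusted p = 0.318), where 0.196% of genes were called with Prdx1. The correlation of Gclc with Gclm, the subunits of 1 enzyme, was 0.096 (1.3% of genes called), of Srxn1 with Txnrd1 0.12 (0.0435%), of Hmox1 with Nqo1 0.078 (0.906%), of Nfe2l2 with Keap1 0.15 (0.00%) and of Cyba with Cybb -0.11 (0.00%). None of these had an adjusted p under 0.05. Mt1 with Mt2 was not tested, since Mt2 was below the filter.

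**Figure D5:**
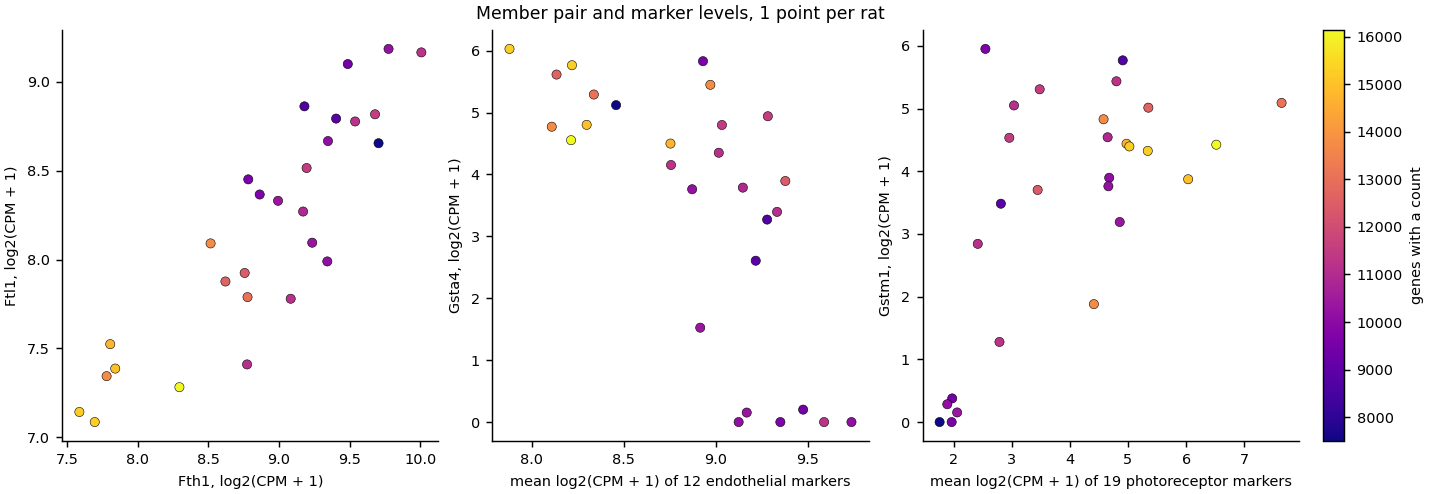
Level of 1 member as log2(CPM + 1) (vertical axes) against another member or against the mean log2(CPM + 1) of a marker list (horizontal axes), with 1 point per rat colored by the number of genes with a count. Fth1 and Ftl1 rise together (left, r = 0.887) with the libraries of most genes at the low end of both, Gsta4 is lower at higher endothelial marker levels (middle, r = -0.70), and Gstm1 is higher at higher photoreceptor marker levels (right, r = 0.63).

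Members were finally set beside the mean level of 6 marker lists, to describe which of them moved with the cell content of the preparation. With endothelial markers 8 of 37 members were called (26.9% of all genes), with microglia and macrophage markers 7 (23%), with photoreceptor markers 4 (17.7%), with pericyte and smooth muscle markers 2 (12%), and with Muller glia and astrocyte (2.25%) and erythrocyte markers (0.0435%) 0 each. With both directions together, the members' shares were below those of all genes for each list with a call. For r above 0, 4 of 37 members were called with endothelial (6.072% of genes) and 2 with pericyte markers (2.746%). For r below 0, 4 were called with microglia and macrophage markers (3.804%). These shares were above those of all genes. In the opposite directions 4, 0 and 3 were called (20.87%, 9.297% and 19.22%), below those shares. With photoreceptor markers 3 had r above 0 (15.09%) and 1 below (2.645%). P-values were adjusted over the 13800 genes tested with each list. With library size 0 members were called (0.413% of genes), the largest r being -0.61 for Prdx6 (rho = -0.59, permutation p = 0.00022 and 0.00129, adjusted p = 0.0523). Gstp1 followed with r = -0.59 (rho = -0.72, permutation p = 0.00052 and 4e-05, adjusted p = 0.0772, and -0.70 without the 2 farthest rats). In the 3 alternatives Gstp1 was called, with r of -0.70 to -0.55 and adjusted p-values of 0.0287 to 0.046. The relation of Gstp1 to depth thus passed the threshold only in the alternatives. The part of depth in the density slope of Gstp1 was not tested.

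Gsta4, the transferase for lipid aldehydes, was lower in libraries with more endothelial RNA. Its r with the endothelial markers was -0.70 (rho = -0.72, permutation p = 6e-05 and 4e-05, adjusted p = 0.00169, and -0.68 without the 2 farthest rats), and it was -0.64 in the 20 libraries with at most 13000 genes (adjusted p = 0.0261) and -0.27 in the other 8. Gsta4 was at 21.6 to 64.2 CPM (median 32.5) in the 8 libraries with over 13000 genes and at 0 to 55.9 CPM (median 11.04) in the other 20. Gstm1 rose with photoreceptor markers (r = 0.63, rho = 0.56, permutation p = 0.00037 and 0.00246, adjusted p = 0.00986), also within the 20 libraries (r = 0.69, adjusted p = 0.0261), with 0.49 in the other 8. Gss had r = 0.57 with the same markers (rho = 0.39, permutation p = 0.00136 and 0.0389, adjusted p = 0.0185, and 0.54 without the 2 farthest rats), 0.60 in the 20 libraries and 0.01 in the 8. Slc7a11 also passed (r = 0.60, rho = 0.57, permutation p = 0.00093 and 0.00177, adjusted p = 0.0152), but it was at 0 in 16 libraries, and r was 0.56 in the 8 and 0.32 in the 20.

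Over all 28 rats, Fth1 was higher where endothelial markers were higher (r = 0.63, rho = 0.53, permutation p = 0.00038 and 0.00472, adjusted p = 0.00488, and 0.51 without the 2 farthest rats). The same held with pericyte and smooth muscle markers (r = 0.67, rho = 0.63, permutation p = 0.00012 and 0.00043, adjusted p = 0.00746, and 0.56 without 2). With microglia and macrophage markers it was lower (r = -0.63, rho = -0.50, permutation p = 0.00026 and 0.00736, adjusted p = 0.0055, and -0.49 without 2). Within the 20 libraries these r were 0.04, 0.34 and 0.26, and within the 8 they were 0.42, 0.36 and -0.30. None of the 6 had an adjusted p under 0.05. With pericyte markers r was above 0 in both sets, with endothelial markers it was near 0 in the 20, and with microglia and macrophage markers its sign differed between the sets. Fth1 was at 191 to 438 CPM (median 225) in the 8 libraries with over 13000 genes and at 392.6 to 1029 CPM (median 594) in the other 20, and Ftl1 at 135 to 272 CPM (median 164) and 169 to 581 CPM (median 357). Ftl1 with microglia and macrophage markers (r = -0.65, rho = -0.61, permutation p = 0.00019 and 0.00072, adjusted p = 0.00461) was at -0.04 in the 20 libraries and -0.66 in the 8, and Prdx3 with the same markers (r = -0.63, rho = -0.58, permutation p = 0.00028 and 0.00142, adjusted p = 0.00575) at -0.36 and -0.61. Cybb had r = 0.54 with microglia and macrophage markers (rho = 0.51, permutation p = 0.0029 and 0.00647, adjusted p = 0.0217, and 0.32 without the 2 farthest rats), with 0.39 in the 20 libraries and 0.85 in the 8. Txn1 passed with endothelial (r = 0.59, rho = 0.58, permutation p = 0.00092 and 0.00174, adjusted p = 0.00834) and pericyte markers (r = 0.56, rho = 0.52, permutation p = 0.00174 and 0.00474, adjusted p = 0.025). Its r was 0.27 and 0.32 in the 20 libraries and -0.11 and -0.05 in the 8. Some of these calls were lost in at least 1 of 3 alternatives. The highest adjusted permutation p for Txn1 was 0.0629 with endothelial and 0.156 with pericyte markers. For Fth1 the corresponding values were 0.0507 and 0.05996, and for Gss with photoreceptor markers the value was 0.0909. Of the 44 relations computed within the sets by gene number, 3 had an adjusted p under 0.05, those of Fth1 with Ftl1, Gsta4 with endothelial markers and Gstm1 with photoreceptor markers, each in the 20 libraries.

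With erythrocyte markers the members with the largest r were Gclm (r = 0.55, rho = 0.23, permutation p = 0.00239 and 0.232, adjusted p = 0.179), Glrx5 (r = 0.52, rho = 0.40, permutation p = 0.0042 and 0.0353, adjusted p = 0.195) and Gsr (r = 0.46, rho = -0.058, permutation p = 0.0185 and 0.764, adjusted p = 0.276). Without the 2 farthest rats r was 0.44, 0.54 and 0.24, so that the value of Gsr rested largely on those rats. With Muller glia and astrocyte markers they were Slc7a11 (r = 0.59, rho = 0.59, permutation p = 0.00119 and 0.0012, adjusted p = 0.0512), Gstm1 (r = 0.53, rho = 0.52, permutation p = 0.00362 and 0.00572, adjusted p = 0.0825) and Txnrd2 (r = 0.46, rho = 0.44, permutation p = 0.013 and 0.0196, adjusted p = 0.143). None passed the threshold. The members and markers of a rat were read from the same library, and these relations describe the preparations and do not assign a member to a cell type.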

How the data were processed

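Total RNA from isolated retinal vasculature of 28 Nile rats was sequenced by the authors with a ligation-mediated method. The deposited expected counts (estimated counts per gene, not normalized) and the deposited TPM (transcripts per 1000000, normalized by the authors for transcript length and depth) carry mouse gene symbols and mouse Ensembl IDs. The study quantified expression both with a comparative cross-species pipeline, which assembles transcripts and maps them to mouse transcripts, and against the genome of the species itself. The tables were taken to come from the former because of their mouse identifiers, but the labels do not state this; sequence divergence could then have affected the values. Of 18970 symbols 14497, and 32 of the 39 members, are in the RefSeq annotation of the Nile rat. No sequences are printed.

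Expected counts were rounded to whole numbers and tested with edgeR 4.0.16 in R 4.3.3 (TMM scaling, filterByExpr with a minimum count of 10, quasi-likelihood F test, Benjamini-Hochberg adjustment over all genes tested). The limits for a call were 2-fold and 0.05 for the adjusted p, the latter alone for slopes. This test gives no SE. Each SE was derived from it, as the size of the log2 fold change or slope over the square root of F. It thus adds nothing to the unadjusted p. EBSeq, used in the study, was not used here. The common biological coefficient of variation was 1.23 to 1.33, so that small changes could not be detected and large ones could also go without a call. In the density comparison, the gene with the smallest p of all had a log2 fold change of -8.38 (SE 2.38) and was not called. The lack of a call thus does not exclude a large change in members with a large SE. CPM are TMM-scaled, and TPM serve only for levels between genes and for an alternative test with limma 3.58.1. DESeq2 1.42.0 and limma-voom were the other alternatives. Correlations used log2(CPM + 1) and 100000 two-sided permutations of the rats (NumPy 2.4.6), with exact permutation for 8 libraries. The code was tested on simulated data. Each sample is a separate rat with a single library, so p-values measure the spread between rats. That spread includes variation between preparations and libraries, which cannot be told apart from it.

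The members and gene lists were chosen with earlier results of these data known. In each comparison the 4 members with the smallest unadjusted p are named where fewer than 4 were called, with all members named for levels, the gene with the smallest p among other pathway genes, and the 3 members with the largest correlation per marker list; further genes are named as members of their role. The settings by number of genes were chosen after seeing the data. A result on the density slope among the other pathway genes is not reported here.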

Additional observations from a re-analysis of the deposited data

Results flagged for a closer look

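Among the 12 groups of values examined for a rat that stands apart, 2 were marked. The rule is meant to mark about 1 in 20 groups by chance. Both marked genes had been named for a small p in these data, so that this rate need not apply to them. For Sod2 in the 5 rats with RBG over 200 mg/dL, T446M stood at 102.9 CPM while the nearest other rat was at 161.4 CPM, a gap of 0.88 of the range. T446M was below the others, and the 4 other rats lay between 161.4 and 169.4 CPM. For Gpx4 in the 8 normal males, T448M stood at 411.3 CPM and the nearest at 187.7 CPM, a gap of 0.593 of the range. T448M held 934248 counts, among the 2 libraries with fewer than 1000000.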

How the results depend on the processing

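No member was called under any setting except by limma-voom in the sex comparison (3 members) and in correlations. No filter on low counts gave 72 called genes in the density comparison, 1 in the glucose comparison, 152 on the RBG slope and 45 on the density slope. DESeq2 gave 5, 43 and 21 in the first 3 and 37 between the sexes, and limma-voom gave 4 in the density comparison and 725 between the sexes. Called genes also numbered 8 for males only in the glucose comparison, 2 in normal density only on the RBG slope, 1 between the sexes with a stricter filter on low counts, and 6 and 5 between the sexes on log2(TPM + 1) and log2(TPM + 0.1). The median of all genes itself moved with the scale, from 0.09 to 0.30 (log2(TPM + 1)) in the glucose comparison and from -0.04 to -0.44 between the sexes. Members above 0 numbered 19 and 19 on the RBG slope with the 2 TPM scales, 23 on the density slope with log2(TPM + 1), and 13 and 12 between the sexes with the 2 TPM scales.

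Signs turned for Cybb in the density comparison (-0.6083 by limma-voom, and -0.1698 to 1.874 when 1 pre-dropout rat was left out, negative without T353M), for Prdx5 by RBG (0.0171 and 0.4519 on the TPM scales) and for Gpx1 by RBG (0.01433 at 110 mg/dL). When 1 rat was left out, members above 0 were 18 to 26 in the density comparison, 12 to 16 in the glucose comparison and 10 to 14 on the RBG slope. Settings chosen after seeing the data gave, without the 4 deep libraries with few genes, 20 members above 0 on the RBG slope, -0.1119 for Prdx4 between the sexes, and 2, 1 and 7 members called with photoreceptor markers, pericyte markers and library size. Without the libraries with over 13000 genes, 1 gene was called on the RBG slope and 2 on the density slope. On log2(TPM + 1) the members called were 2 with Muller glia and astrocyte markers, 2 with endothelial, 0 with pericyte markers and 1 with library size, and in libraries of at least 1000000 counts 1 with library size. The causes of these moves were not tested. For the members called with marker lists and library size in these settings, the shares over all genes are not given here. Those counts thus cannot be read as particular to the members. The replicate numbers follow accession order, and no paired analysis was possible because they do not link rats across groups.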
